A study of Rattus norvegicus with 192 samples.

Results

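The kidney-enriched genes are 146 of the 12563 genes listed in the 8 mRNA count tables of this study. They were chosen by their level in the kidney of ZDF rats fed casein, relative to the liver, adipose tissue and prefrontal cortex (PFC) of the same group of rats. Levels are counts scaled to a library total of 1000000 (CPM), and a gene absent from a tissue's table was set to 0. A gene was kept when its median kidney level was at least 20 CPM and at least 10 times its median in each other tissue. The limit of 150 genes was not reached. The enrichment in casein-fed ZDF rats is therefore how the genes were picked, and it is described here without a test.

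The kidney filters plasma in the glomerulus, and the tubules then take back water, salts and nutrients and secrete drugs and metabolic waste. Many of its abundant transcripts encode transporters and enzymes of single tubule segments, and few other organs use them at the same level. The kidney also activates and degrades vitamin D, makes glucose in the fasted state, and conjugates foreign compounds.

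The study asked what dietary whole egg does to the transcriptome in type 2 diabetes. Rats were ZDF rats fed whole egg, ZDF rats fed casein, lean rats fed whole egg and lean rats fed casein, with 6 rats in each group. ZDF (Zucker Diabetic Fatty, fa/fa) rats lack a working leptin receptor, become obese and develop diabetes, and the lean controls (fa/+) still carry 1 fa allele. All were males obtained at 6 wk of age and fed for 8 wk. They were caged in pairs. The protein came from dried whole egg or from casein, and the casein diet held corn oil to match the fat of the egg. Kidney libraries held 948319 to 3195202 counts in egg-fed ZDF rats, 138171 to 1163903 in casein-fed ZDF rats, 418760 to 1448542 in egg-fed lean rats and 665699 to 5356262 in casein-fed lean rats. Genotype follows the column names of the count tables. The strain given in the sample labels differs from it for 12 of the 24 rats, and several results are also given under that strain.

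Only 5 of the 146 genes have a symbol in the sources used here (550 of all 12563 identifiers do). These symbols come from the study's own list of genes that responded to diet in some tissue of these rats, so the named genes are not a neutral sample of the set. Slc12a3 encodes the thiazide-sensitive sodium-chloride cotransporter, which reabsorbs salt in the distal convoluted tubule. Cyp24a1 encodes the mitochondrial 24-hydroxylase that degrades active vitamin D, and Gclm the modifier subunit of glutamate-cysteine ligase, the first enzyme of glutathione synthesis. Sult1c2a encodes a cytosolic sulfotransferase, and Arg2 the mitochondrial arginase, which splits arginine into ornithine and urea. Counts of Sult1c2a are uncertain where related sulfotransferase genes share 3′ sequence. The other 141 genes are described by their counts, and 4 of them are given by identifier.

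The promoters of 3 of the 5 named genes were matched by symbol in the RefSeq table (GRCr8), which gives 250 bases before and 50 after the gene start. Those of Slc12a3, the most kidney-restricted of the 3, and of Gclm, the named gene with the highest kidney level, are shown from 5′ to 3′. They lie on the minus strand of chr19:10675001-10675300 and on the plus strand of chr2:213031885-213032184. Capitals mark a match to TATAAA (the TATA box) in Slc12a3 and to TGACNNNGC (the core of the antioxidant response element) in Gclm, where it is read on the opposite strand.
Slc12a3: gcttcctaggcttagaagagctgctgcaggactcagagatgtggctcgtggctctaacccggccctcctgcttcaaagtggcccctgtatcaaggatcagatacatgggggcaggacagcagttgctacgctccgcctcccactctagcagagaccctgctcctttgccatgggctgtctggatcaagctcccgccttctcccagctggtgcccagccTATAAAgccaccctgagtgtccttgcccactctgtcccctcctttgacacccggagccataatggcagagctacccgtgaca
Gclm: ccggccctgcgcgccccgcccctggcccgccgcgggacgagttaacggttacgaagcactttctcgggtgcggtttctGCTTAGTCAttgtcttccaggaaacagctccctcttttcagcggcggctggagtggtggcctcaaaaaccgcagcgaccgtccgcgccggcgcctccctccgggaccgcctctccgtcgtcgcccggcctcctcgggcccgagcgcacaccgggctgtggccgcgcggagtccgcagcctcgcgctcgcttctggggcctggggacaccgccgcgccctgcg

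TATAAA, searched on both strands, was present in 14.2% of the 33469 promoters in the table, and in Slc12a3 it began 32 bases before the gene start. TGACNNNGC was present in 12.1%, and in Gclm its match began 172 bases before the start. The third named promoter, of Sult1c2a, held TATAAA on the opposite strand, 245 bases before the start. GTTAAT, a part of the motif of HNF1 (a transcription factor of the proximal tubule), was present in 7.45% of promoters and in none of the 3. These are matches of letters and no binding was measured.

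In casein-fed ZDF rats the kidney medians of the 146 genes ran from 20.3 to 1738 CPM, with a median of 59.5 CPM. Of them, 52 had at least 100 CPM and 77 at least 50 CPM. In all, 78 genes (53.4%) were listed in none of the other 3 ZDF tables, so their medians there were 0. Of the 146, 55 were listed for liver, 43 for PFC and 39 for adipose tissue, and 29 were listed in all 4 ZDF tables. Among the 68 genes with another median above 0, the kidney median was 10.3 to 238 times the highest other median (median 32.4 times), and that highest other tissue was the liver for 41, the PFC for 15 and adipose tissue for 12.

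**Figure D1:**
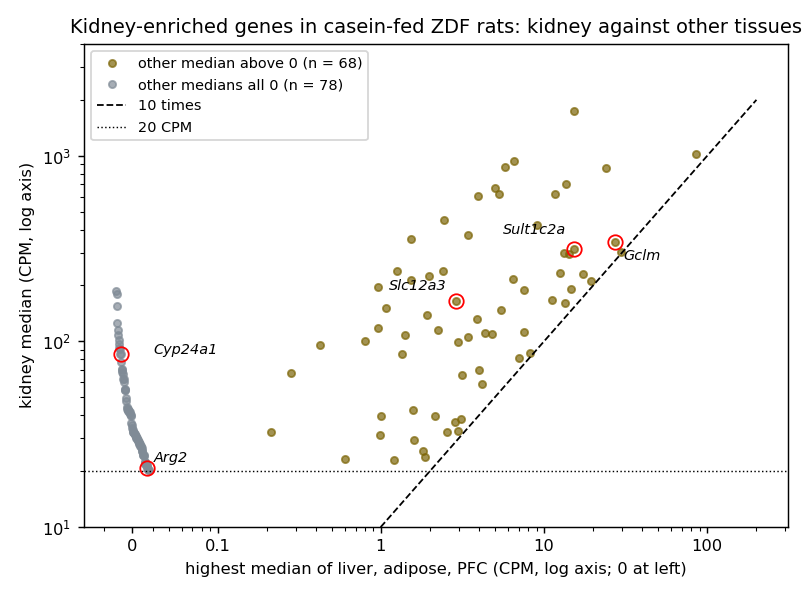
Each point is 1 of the 146 genes in casein-fed ZDF rats, with its median level in the kidney (vertical, CPM, log axis) against its highest median in liver, adipose tissue or PFC (horizontal, CPM, log axis, with 78 genes at 0 drawn at the left). Red rings mark the 5 named genes; Slc12a3 stands at 165 CPM in the kidney against 2.87 CPM in the liver, and Gclm at 341 CPM against 27.3 CPM, near the dashed line of 10 times.

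Near the level threshold, the 2 lowest genes inside had kidney medians of 20.3 and 20.4 CPM, and the 2 highest outside had 19.9 and 18.5 CPM. Near the fold threshold, the 2 lowest inside had ratios of 10.3 and 10.7, and the 2 highest outside 9.85 and 9.58. None of these genes has a symbol. Arg2 was close to the edge, with a kidney median of 20.7 CPM.

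The rule was then applied to libraries it had not used. In egg-fed ZDF rats, 129 of the 146 genes (88.4%) again had a kidney median of at least 20 CPM and 10 times each other tissue, and 35 other genes also met both thresholds. The 2 diets share the ZDF tables, so 78 of the 146 genes, not listed for the other tissues, were 0 there in advance. For these 78 only the kidney level could fail. Genes absent from a table of lean rats were likewise set to 0. In casein-fed lean rats 113 (77.4%) met both, and 22 other genes did. In egg-fed lean rats, where kidney, adipose tissue and PFC were used and liver was not analysed here, 109 (74.7%) met both, and 105 other genes did. Of the 146 genes, 142 are listed in the lean kidney table. With 5 times in place of 10 times, 139, 122 and 116 genes met both thresholds in these 3 groups.

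In egg-fed ZDF rats the lowest ratio was 3.87, 2 genes were under 5 times, and 6 had a kidney median under 20 CPM. In casein-fed lean rats 12 genes were under 5 times, with a lowest ratio of 1.47 and a highest of 567. In egg-fed lean rats 13 genes were under 5 times, and 2 had a lower level in the kidney than in another tissue. Where all the tissues list a gene, 25 of 29, 21 of 27 and 28 of 37 genes met both thresholds in egg-fed ZDF, casein-fed lean and egg-fed lean rats.

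Slc12a3 kept a kidney median of 26.2 times that of the liver in egg-fed ZDF rats and 97.9 times in casein-fed lean rats. Cyp24a1 was listed in no table but those of the kidney. Gclm and Sult1c2a were 6.78 and 6.31 times the liver in egg-fed ZDF rats, under the threshold. In the liver of ZDF rats, Sult1c2a had 30.5 to 59.9 CPM on whole egg and 0.786 to 39.4 CPM on casein, and Slc12a3 had 5.89 to 16.9 CPM on whole egg and 1.13 to 7.92 CPM on casein. The liver ranges on the 2 diets overlapped for both genes, and they were not tested here. The study lists both genes, and Gclm, as higher on whole egg in the ZDF liver by its own test, and their symbols here come from that listing. In casein-fed lean rats Gclm was 6.17 times its adipose level and Sult1c2a 6.52 times its liver level. Arg2 had 13.1 CPM in the kidney and 3.11 CPM in the PFC of casein-fed lean rats and met neither threshold.

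Together the 146 genes took 1.29% to 5.31% of the counts in the 24 kidney libraries (median 2.47%). They took 0.0345% to 0.104% in 17 liver libraries, 0.0156% to 0.607% in 24 adipose libraries and 0.0122% to 0.121% in 24 PFC libraries. The ranges of kidney and non-kidney libraries did not overlap, which includes the 18 kidney libraries that did not choose the genes. This separation was in part fixed in advance. The casein-fed ZDF libraries of the other tissues also chose the genes. In addition, 78 of the 146 genes are listed in no other ZDF table and add 0 to every ZDF library outside the kidney. The highest adipose library, of egg-fed ZDF rat 11, held 30819 counts in all, of which 187 fell on the 146 genes, and 3 counts of Slc12a3 there made 97.3 CPM. The next highest, of casein-fed lean rat 12, was not shallow, with 5538 of 1129905 counts on these genes (0.490%). The highest PFC library, of casein-fed ZDF rat 3, held 67861 counts, of which 82 fell on these genes and 1 count of Slc12a3 made 14.7 CPM. Why these shares were high was not tested.

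**Figure D2:**
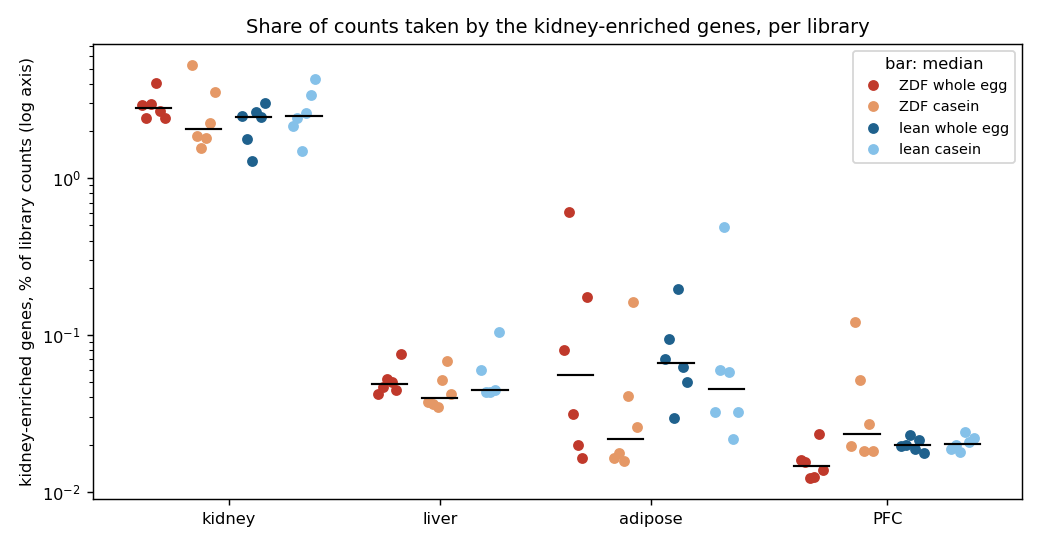
Percentage of each library's counts (vertical, log axis) that fell on the 146 genes, by tissue and group; points are libraries and bars are medians of 6 rats (5 in casein-fed lean liver; the egg-fed lean liver was not analysed here). All 24 kidney libraries lie between 1.29% and 5.31%, and all libraries of the other tissues at or under 0.607%.

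Among markers of other cell types, the 4 adipocyte genes with a symbol (Adipoq, Fabp4, Retn and Lpl) summed to 80.6 to 347 CPM in egg-fed and 95.5 to 628 CPM in casein-fed ZDF kidneys, and to 128 to 591 CPM in egg-fed and 119 to 557 CPM in casein-fed lean kidneys. In adipose tissue the same sum had medians of 12646 to 22247 CPM by group. The lowest adipose library, of an egg-fed lean rat, had 139 CPM, which lies within the kidney ranges. That library is part of the adipose values given here, and why it was low was not tested. Apoa1, the apolipoprotein of hepatocytes, had group medians of 14.6 to 24.4 CPM in the kidney and of 554 to 2862 CPM in the liver. Its highest kidney value was 109 CPM, in casein-fed ZDF rat 1. Mbp, a protein of myelin, had group medians of 22.0 to 118 CPM in the kidney and of 3056 to 3426 CPM in the PFC. Its highest kidney value was 384 CPM, in egg-fed lean rat 2. Whether RNA from other tissues changed any result was not tested.

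Within the set, a few genes carried much of the signal. The 10 highest of the 146 took 32.4% to 58.8% of the set's counts in a kidney library, and the same gene, which has no symbol, led in 22 of the 24 libraries. It took up to 23.2% of the set's counts, at 9972 CPM, in casein-fed lean rat 23, whose library was the deepest.

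The level of these genes varied widely between rats of a group. The SD of log2(CPM + 1) over 6 rats had a median over the genes of 0.72 in egg-fed and 1.01 in casein-fed ZDF rats, and of 0.80 in egg-fed and 0.84 in casein-fed lean rats. Over all genes with a group median of at least 20 CPM it was 0.62 and 0.79 in ZDF rats and 0.68 and 0.68 in lean rats, in the same order. The set was not held to that level in each group. In the same order, 140 and 146 of 146 genes and 121 and 126 of 142 reached it, so the 2 spreads are not fully alike. Some libraries stood apart. Of the 142 genes in both kidney tables, 31 were under 0.25 times their median over the 24 libraries in casein-fed ZDF rat 5, whose library is the shallowest, 29 in egg-fed lean rat 10, 23 in casein-fed lean rat 12 and 19 in egg-fed lean rat 13. Over the 3988 genes with at least 20 CPM, 9.03%, 20.2%, 17.5% and 2.48% were as low in these rats, against 21.8%, 20.4%, 16.2% and 13.4% of the kidney-enriched genes. At the other end, 17 genes (12.0%) were over 4 times their median in casein-fed ZDF rat 1, against 7.92% of the 3988 genes, and no other library had more than 4 such genes.

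**Figure D3:**
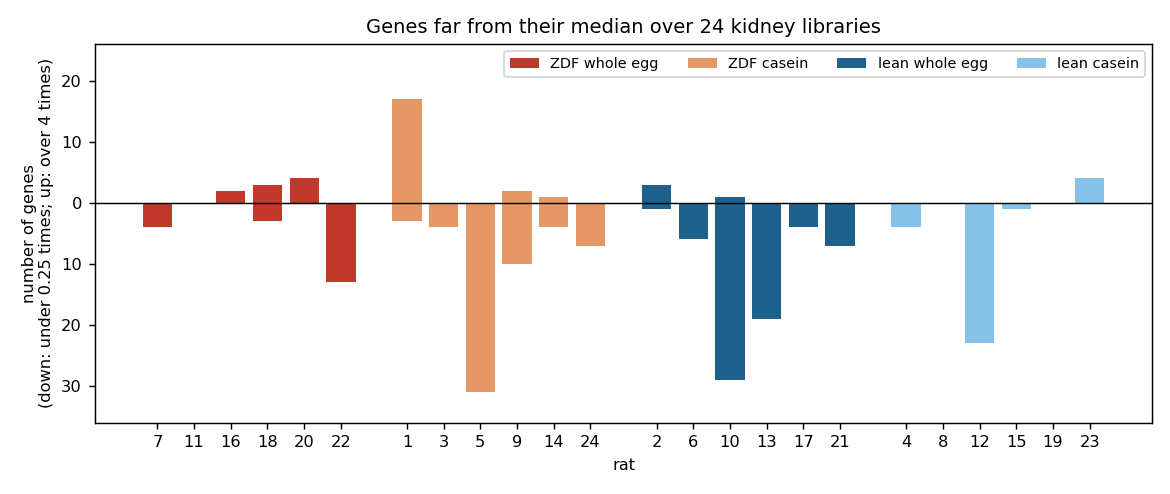
Number of the 142 genes in both kidney tables that were under 0.25 times (downward bars) or over 4 times (upward bars) of their median over 24 kidney libraries, per rat, colored by group. Rats 5, 10, 12 and 13 have 31, 29, 23 and 19 low genes, and rat 1 has 17 high genes. The low genes are 21.8%, 20.4%, 16.2% and 13.4% of the set. Of the 3988 genes with at least 20 CPM, 9.03%, 20.2%, 17.5% and 2.48% were as low.

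In a principal component analysis of the 142 genes over the 24 kidney libraries, component 1 held 32.6% of the variance and component 2 17.7%. On component 1, 138 of the 142 genes had the same sign, and rats 5 and 10 had the lowest scores (-16.38 and -15.23) and rat 1 the highest (13.43). Rats 5 and 10 have the shallowest kidney libraries (138171 and 418760 counts). Whether the shared sign is particular to these genes or common to all genes of a library was not tested. Component 2 set rats 10 and 9 (13.21 and 9.66) against rats 13, 24 and 21 (-12.41, -8.60 and -7.21). Rats of the same group lay far apart on both components, and no score was tested.

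Slc12a3 was an example of this spread. It had 148, 316, 318, 430, 271 and 220 CPM in egg-fed ZDF rats 7, 11, 16, 18, 20 and 22, against 322, 148, 36.2, 562, 182 and 19.8 CPM in casein-fed ZDF rats 1, 3, 5, 9, 14 and 24. In lean rats it had 204, 195, 200.6, 2.84, 111 and 57.3 CPM in egg-fed rats 2, 6, 10, 13, 17 and 21, against 136, 307, 117, 360, 236 and 378 CPM in casein-fed rats 4, 8, 12, 15, 19 and 23. The value of rat 13 rests on 4 counts, and the diet groups overlapped in both genotypes. In rat 13 Gclm had 488 CPM, Sult1c2a 229 CPM, Arg2 34.1 CPM and Cyp24a1 37.6 CPM.

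The first question by diet was whether whole egg changed these genes in the lean kidney, where no library had been used to choose them. In edgeR's quasi-likelihood test, 0 of 142 genes passed a false discovery rate (FDR) of 5% over all 7607 genes, and 0.0% of all genes did. At an unadjusted p under 0.05 there were 2 higher and 8 lower of 142 genes, against 131 higher and 108 lower of all 7607. Leaving out 1 library gave 5 (without rat 13) to 13 (without rat 2) lower genes. DESeq2 called 0 of the 142. The log2 fold changes of the 142 genes, whole egg over casein, had a median of -0.07 (quartiles -0.38 and 0.21). Over all genes it was 0.00 (quartiles -0.30 and 0.30). Of the 142, 56 were above 0, where 50.2% of all genes were. Leaving out 1 library moved the median of the set to between -0.17 (without rat 4) and 0.0006 (without rat 23). The standard errors of the set had a median of 0.38, against 0.50 over all genes. Fold changes of 8 genes (5.63%) were past 1 in either direction, against 5.46% of all genes. In bulk tissue, fewer cells of a type and less RNA per cell cannot be told apart.

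Cyp24a1 had the smallest p of the 142 genes in the lean kidney. It had 94.2, 39.0, 26.3, 37.6, 85.8 and 36.6 CPM in egg-fed rats 2, 6, 10, 13, 17 and 21, against 163, 139, 111, 120, 104 and 172 CPM in casein-fed rats 4, 8, 12, 15, 19 and 23. Every egg-fed rat was below every casein-fed rat. By the strain of the sample labels the lean groups overlapped, with 8.44 to 144 CPM in 7 egg-fed rats, against 78.0 to 172 CPM in 5 casein-fed rats, and the log2 fold change was -0.51. With the genotype of the tables the log2 fold change was -1.29 ± 0.31 (SE, 6 rats a group), with an unadjusted p of 2.57e-04 and an adjusted p of 0.979 in edgeR, so it did not pass over all genes.

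Arg2 had the opposite pattern. It had 35.7, 24.2, 28.7, 34.1, 35.9 and 51.1 CPM in egg-fed rats 2, 6, 10, 13, 17 and 21, against 11.4, 11.8, 1.50, 14.4, 21.3 and 22.8 CPM in casein-fed rats 4, 8, 12, 15, 19 and 23. Every egg-fed rat was above every casein-fed rat, though the value of rat 12 is 1 count. These groups overlapped too by the strain of the sample labels, with 26.7 to 51.1 CPM in egg-fed and 14.4 to 50.7 CPM in casein-fed lean rats, and the log2 fold change was 0.55. With the genotype of the tables the log2 fold change was 1.55 ± 0.42, with an unadjusted p of 0.00108 and an adjusted p of 0.998 in edgeR. The study lists Cyp24a1 as lower and Arg2 as higher on whole egg in the lean kidney, by its own DESeq2 test. Their symbols here come from that listing, so they were not picked independently of it. In the tests run here neither edgeR nor DESeq2 called them. These 2 genes were the only ones of the 142 whose groups did not overlap. Of all genes, 0.0394% were higher and 0.118% lower without overlap, which is 3 and 9 genes.

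Of the unnamed genes, ENSRNOG00000032857 and ENSRNOG00000054742 had the smallest p among those lower on whole egg. ENSRNOG00000032857 had 14.9 to 164 CPM (median 40.8) in egg-fed lean rats, against 71.6 to 321 CPM (median 186) in casein-fed lean rats, with a log2 fold change of -1.39 ± 0.44 and an adjusted p of 0.998 in edgeR. ENSRNOG00000054742 had 13.7 to 45.6 CPM (median 24.0) on whole egg, against 43.6 to 69.5 CPM (median 60.2) on casein, with a log2 fold change of -0.97 ± 0.35 and the same adjusted p. Both had overlapping groups. ENSRNOG00000032857, by the strain of the sample labels, had medians of 63.3 CPM in egg-fed and 168 CPM in casein-fed lean rats, and ENSRNOG00000054742 of 29.6 and 66.1 CPM. Slc12a3 had a log2 fold change of -0.79 ± 0.48 (unadjusted p = 0.113, edgeR, adjusted p = 0.998), Gclm of 0.34 ± 0.33 and Sult1c2a of 0.12 ± 0.29. Gclm ranged from 71.6 to 651 CPM on whole egg and from 229 to 540 CPM on casein, and Sult1c2a from 115 to 419 CPM on whole egg and from 182 to 373 CPM on casein.

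**Figure D4:**
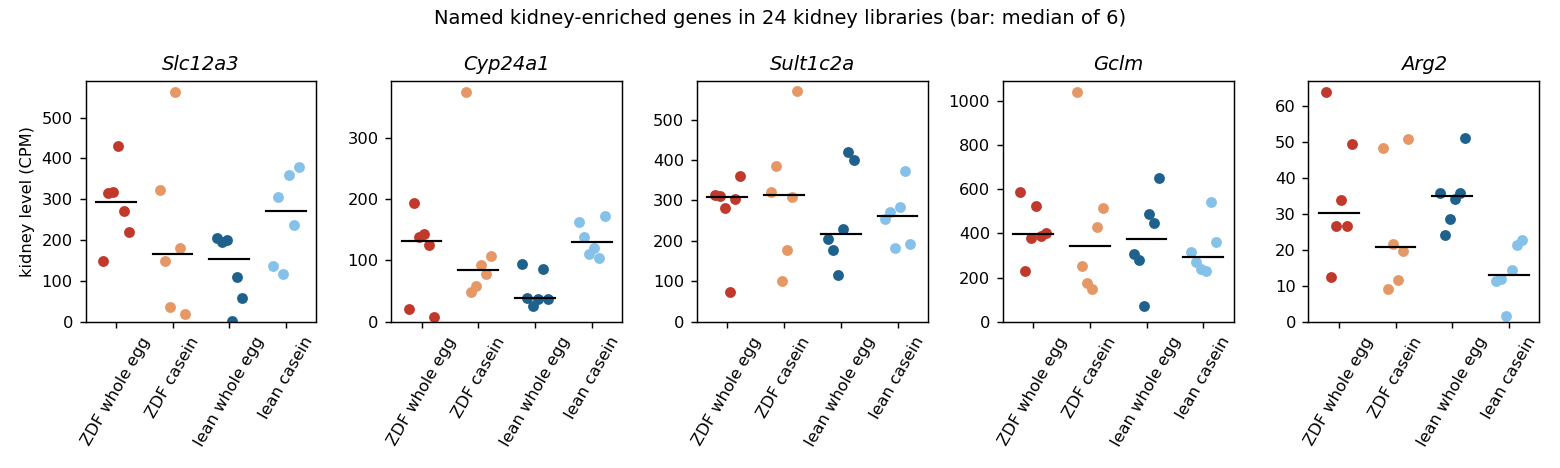
Kidney level (CPM, linear axis from 0) of the 5 named genes in each of 24 libraries, by group of 6 rats with the genotype of the tables; points are rats and bars are medians. In lean rats Cyp24a1 lies at 26.3 to 94.2 CPM on whole egg against 104 to 172 CPM on casein, and Arg2 at 24.2 to 51.1 CPM against 1.50 to 22.8 CPM, while all other pairs of groups on the same diet or of the same genotype overlap.

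In ZDF rats the casein-fed libraries had chosen the genes, so this comparison is a description. Of 146 genes 0 passed, as did 0.0% of all 7501, and DESeq2 called 0 of the 146. At an unadjusted p under 0.05 there were 14 higher and 2 lower of 146 genes, against 169 higher and 256 lower of all 7501. The standard errors of the set had a median of 0.42, against 0.50 over all genes, which bears on these counts. Without egg-fed rat 18, 4 genes were higher and 3 lower, and without casein-fed rat 14, 7 and 3. The median log2 fold change, whole egg over casein, was 0.05 (quartiles -0.29 and 0.46), against 0.01 over all genes, and leaving out 1 library moved it to between -0.01 (without rat 18) and 0.18 (without rat 24). No gene of the set had groups without overlap, where 0.16% of all genes were higher and 0.0267% lower. Cyp24a1 had 20.7, 193, 139, 144, 126 and 8.44 CPM in egg-fed rats 7, 11, 16, 18, 20 and 22, against 375, 49.0, 57.9, 92.1, 78.0 and 107 CPM in casein-fed rats 1, 3, 5, 9, 14 and 24. Its groups overlapped widely, with rats 22 and 7 low and rat 1 high. Its log2 fold change was -0.16 ± 0.48, and without rat 1 it was 0.22. Arg2 had 12.4 to 63.8 CPM in egg-fed and 9.12 to 50.7 CPM in casein-fed ZDF rats, with a log2 fold change of 0.34 ± 0.49. Slc12a3 had 0.43 ± 0.45, Gclm 0.03 ± 0.35 and Sult1c2a -0.31 ± 0.38, of which Gclm changed sign with other normalizations. Leaving out 1 library moved Slc12a3 to between 0.20 (without rat 24) and 1.16 (without rat 9), and Arg2 to between 0.10 (without rat 7) and 0.86 (without rat 24).

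Whether diet acted differently in the 2 genotypes was tested as an interaction over 24 libraries and the 6797 genes in both tables, which again include the libraries that chose the genes. Of 142 genes 0 passed, and 0.0% of all genes did. At an unadjusted p under 0.05, 9 genes were higher and 1 lower, against 132 higher and 151 lower of all genes, and DESeq2 called 0 of the 142. For Cyp24a1 the difference of the log2 fold changes, ZDF minus lean, was 1.13 ± 0.62 (adjusted p = 0.999 in edgeR). For Arg2 it was -1.21 ± 0.64 and for Slc12a3 1.22 ± 0.74, both with the same adjusted p. The differences by the strain of the sample labels were -0.28 for Cyp24a1, 0.70 for Arg2 and 0.15 for Slc12a3. The standard errors of the 142 differences ran from 0.40 to 0.98, with a median of 0.60. With genotype as a term, 0 of 142 genes passed for whole egg over casein, where 0.0147% of all genes did, with 5 higher and 8 lower at an unadjusted p under 0.05 (140 higher and 146 lower of all genes), and DESeq2 called 0 of the 142. Arg2 and Cyp24a1 had log2 fold changes of 0.93 ± 0.34 and -0.73 ± 0.33 (adjusted p = 0.994 for both, edgeR).

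Genotype was compared on the whole egg diet in libraries that the rule had not used. The rule had still kept only genes high in the kidney of ZDF rats, and genes low there could not enter. A tilt toward ZDF rats was thus favored in advance, and the directions are a description. Of 142 genes 0 passed over 6797 genes, as did 0.0% of all genes, and DESeq2 called 0 of the 142. The log2 fold changes, ZDF over lean, had a median of 0.14 (quartiles -0.10 and 0.48), against 0.04 over all genes (quartiles -0.25 and 0.31). Of the 142, 95 were above 0, where 53.8% of all genes were. At an unadjusted p under 0.05, 9 of 142 genes were higher and 0 lower, against 121 higher and 193 lower of all 6797. The 9 became 4 without egg-fed lean rat 17, 5 without egg-fed lean rat 6, and 17 without egg-fed ZDF rat 7 or egg-fed lean rat 2. No gene of the set had groups without overlap, against 0.427% higher and 0.0147% lower of all genes. These directions depend on the source of the genotype. With the strain of the sample labels the median was -0.22, with 41 genes above 0 and 101 below. Leaving out 1 library, with the genotype of the tables, moved the median to between 0.06 (without rat 18) and 0.21 (without rat 21).

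ENSRNOG00000054378 and ENSRNOG00000009465, both without a symbol, had the smallest p of the genes higher in egg-fed ZDF rats. ENSRNOG00000054378 had 40.7 to 376 CPM (median 233) in egg-fed ZDF rats, against 52.2 to 128 CPM (median 66.8) in egg-fed lean rats, with a log2 fold change of 1.23 ± 0.35 and an adjusted p of 0.578 in edgeR. Of the egg-fed ZDF rats, rat 11 lay below the range of the egg-fed lean rats, at 40.7 CPM, and the other 5 above it. ENSRNOG00000009465 had 2.11 to 33.5 CPM (median 28.4) in egg-fed ZDF rats, against 0 to 14.0 CPM (median 6.39) in egg-fed lean rats, with a log2 fold change of 1.81 ± 0.68 and an adjusted p of 0.832 in edgeR. On casein its range was 9.45 to 196 CPM in ZDF rats and 7.93 to 41.9 CPM in lean rats. By the strain of the sample labels the medians of the egg-fed ZDF rats lay below those of the egg-fed lean rats for both genes, at 66.9 and 224 CPM for ENSRNOG00000054378 and at 9.55 and 14.0 CPM for ENSRNOG00000009465. Slc12a3 had a log2 fold change of 0.86 ± 0.49 on whole egg (147.6 to 430 CPM in ZDF rats, against 2.84 to 204 CPM in lean rats), and Cyp24a1 of 0.74 ± 0.48, neither past the test (adjusted p = 0.999 in edgeR), and by the strain of the sample labels they had 0.33 and 0.04. Leaving out 1 library moved Slc12a3 to between 0.59 (without rat 13) and 1.14 (without rat 10), and Cyp24a1 to between 0.37 (without rat 11) and 0.96 (without rat 22). The egg-fed lean libraries enter this comparison and the diet comparison in lean rats, so the 2 sets of values share 6 libraries.

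On the casein diet the ZDF libraries had chosen the genes, and the values are a description. Of 142 genes 0 passed, as did 0.0% of all genes, and DESeq2 called 0. The median log2 fold change, ZDF over lean, was -0.07 (quartiles -0.39 and 0.24), against 0.01 over all genes, with 6 genes higher and 6 lower at an unadjusted p under 0.05 (138 higher and 138 lower of all genes). Leaving out 1 library moved the median to between -0.18 (without rat 24) and 0.01 (without rat 23), and by the strain of the sample labels it was -0.26, with 46 genes above 0 and 96 below. Groups overlapped for all 142, where 0.0588% of all genes were higher and 0.0736% lower without overlap. Arg2 had a log2 fold change of 0.93 ± 0.52 (0.42 without rat 24), with 9.12 to 50.7 CPM in ZDF and 1.50 to 22.8 CPM in lean rats. By the strain of the sample labels it was -0.83, with 1.50 to 48.3 CPM in 7 ZDF rats and 14.4 to 50.7 CPM in 5 lean rats.

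Over both diets, 0 of 142 genes passed for ZDF over lean, where 0.0147% of all genes did. The median log2 fold change was 0.04, and DESeq2 called 0 of the 142. At an unadjusted p under 0.05, 11 of 142 genes were higher and 0 lower (150 higher and 110 lower of all 6797). Leaving out 1 library moved the median to between -0.01 (without rat 24) and 0.09 (without rat 21). The 11 became 4 without casein-fed ZDF rat 1, and this fit also holds the libraries that chose the genes. By the strain of the sample labels the median was -0.29, with 38 genes above 0 and 104 below, and 6 genes were higher and 24 lower at that p (390 higher and 250 lower of all genes), with 0 passing. The labels give rats 1 to 12 as ZDF and rats 13 to 24 as lean. The 146 genes took 1.29% to 5.31% of kidney counts (median 2.02%) in rats 1 to 12 and 2.24% to 4.29% (median 2.83%) in rats 13 to 24. By the genotype of the tables the shares were 2.42% to 4.08% in egg-fed ZDF, 1.55% to 5.31% in casein-fed ZDF, 1.29% to 3.04% in egg-fed lean and 1.49% to 4.29% in casein-fed lean rats.

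**Figure D5:**
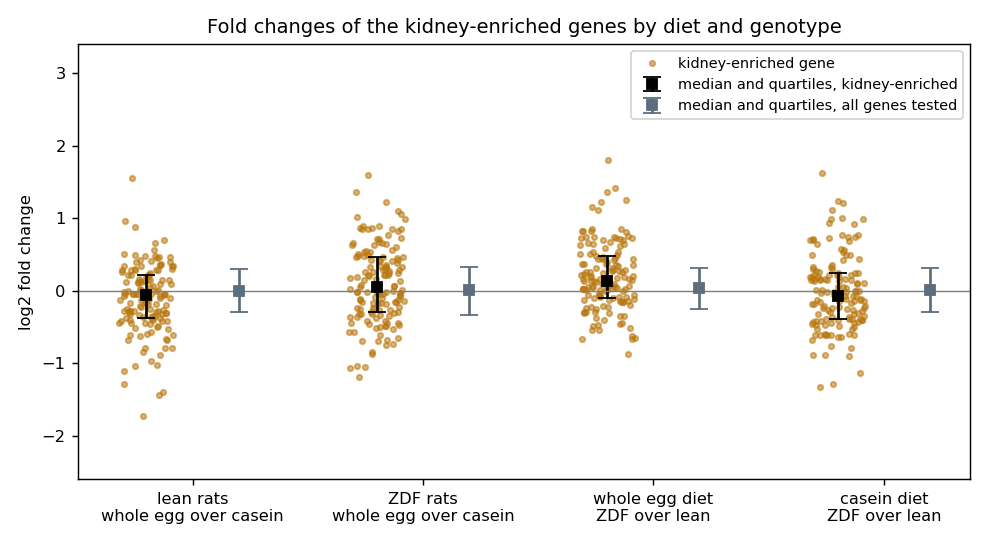
Log2 fold changes of the kidney-enriched genes (points, 142 or 146 genes) in 4 comparisons of 6 against 6 rats, each with the median and quartiles of the set (black) and of all genes tested (gray). The set's medians are -0.07, 0.05, 0.14 and -0.07 from left to right, the quartiles of set and background overlap, and no point passed an FDR of 5%.

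Of the genes usually named as markers of the kidney's segments and functions, few could be placed. Of 217 genes in 13 lists, 22 have a symbol here, and 2 of them, Cyp24a1 and Slc12a3, met the rule. Of the other 20, 14 had a kidney median of at least 20 CPM but under 10 times another tissue. Acsm3, a medium-chain acyl-CoA synthetase, was nearest, with 104 CPM in the kidney and 11.2 CPM in the liver. Cyp4a2, a fatty acid omega-hydroxylase, had 1517 CPM in the kidney and 394 CPM in the liver, Glyat, which conjugates glycine, 308 and 85.2 CPM, and Clic5, a chloride channel protein of podocytes, 164 CPM in the kidney and 104 CPM in adipose tissue. G6pc, the last enzyme of glucose production, had 237 CPM in the kidney and 479 CPM in the liver. In the lean kidney 0 of 21 of these genes passed for whole egg over casein, as did 0.0% of all genes. At an unadjusted p under 0.05 in edgeR, 1 was higher and 2 lower, against 131 higher and 108 lower of all 7607 genes. In each of the other 6 comparisons 0 of 20 passed, where at most 0.0147% of all genes did. These symbols also come from the study's list of genes that responded to diet, so the genes are not a neutral sample. Cyp24a1 is listed there for the lean kidney itself.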

How the data were processed

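QuantSeq 3′ libraries were made by the authors from kidney, liver, adipose tissue and PFC. Adapters were trimmed with BBDuk, and STAR mapped and counted the reads per gene (Rnor_6.0, Ensembl 94; tool versions were not stated). The authors deposited unnormalized counts in 8 tables, after dropping genes with too few detected samples. Here 89 mRNA libraries of the 192 in the series were used, and 7 per-sample columns of the liver tables, which name rats of the other genotype, were not used. Deposited columns of the authors' own fold changes and p-values were not used. CPM were computed from column totals. Tests were run in edgeR 4.0.16 (R 4.3.3) with TMM factors, two-sided quasi-likelihood tests, no further filter and Benjamini-Hochberg adjustment over all genes, and were tried on simulated counts. Alternatives were DESeq2 1.42.0, RLE and upper quartile factors, filterByExpr, limma-voom (limma 3.58.1), an FDR of 10%, the strain of the sample labels, other thresholds or scaling for the set, and leaving out each library. Leaving out rats 5 and 10 together was chosen after seeing the data.

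The genes and lists were chosen with earlier results of these data known. The text names genes of the set with a symbol that were among the 20 highest, among the 3 highest of a list, past the FDR or among the 3 smallest p in each direction. Genes without a symbol are given by identifier only where past the FDR or among those smallest p, at most 2 in each direction. Kidney libraries held 138171 to 5356262 counts, so values of the shallowest are the least precise. Counting error and the spread between rats both enter the p-values, and rats caged together may not be independent.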

Additional observations from a re-analysis of the deposited data

Results flagged for a closer look

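A library was flagged when its gap to the nearest of the other rats of its group, over the whole range of the group, was above Dixon's 95% critical value (0.625 for 6 rats, 0.71 for 5). Of 35 groups of values tested, 10 had such a library, where chance flags about 1 in 20 groups of normally distributed values. The rate for CPM and percentages such as these was not measured.

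In the kidney, Sult1c2a had 74.2 CPM in egg-fed ZDF rat 18, and the next lowest rat had 281 CPM. Cyp24a1 had 375 CPM in casein-fed ZDF rat 1, and the next highest rat had 107 CPM. The 146 genes took 4.08% of counts in egg-fed ZDF rat 18, against 2.97% in the next highest rat.

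In other tissues the share of counts on the 146 genes stood apart in single libraries. In adipose tissue it was 0.490% in casein-fed lean rat 12, 0.162% in casein-fed ZDF rat 14 and 0.607% in egg-fed ZDF rat 11, whose nearest others had 0.060%, 0.041% and 0.174%. In the PFC it was 0.121% in casein-fed ZDF rat 3 and 0.023% in egg-fed ZDF rat 20. In the liver it was 0.104% in casein-fed lean rat 19 and 0.076% in egg-fed ZDF rat 22. Causes were not tested.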

How the results depend on the processing

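No kidney-enriched gene passed in any of the 7 comparisons under any alternative run. No paired analysis was possible because each rat had one diet and one genotype, so the groups tested share no animal, and tissues were compared with no test. At 20 times each other tissue the rule kept 123 genes (123 shared with the set, by construction). It kept 140 with casein-fed rats by the label strain (121 shared), 145 with TMM-scaled CPM (134 shared) and 133 to 150 without 1 rat. With means 168 genes met both thresholds, and at 5 times 204 did, and the limit of 150 genes cut both. Of the 150 kept, 131 were shared with means and 105 at 5 times. Every gene of the set also meets 5 times, so the 105 reflects the limit and not a failed threshold. Among genes listed in every table compared, fewer could meet both thresholds, and 25, 21 and 28 did in egg-fed ZDF, casein-fed lean and egg-fed lean rats.

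With the label strain as genotype, log2 fold changes turned for Sult1c2a in the lean diet comparison (-0.2008), for Gclm (-0.1616) and Slc12a3 (-0.0587) in the ZDF diet comparison, for Cyp24a1 (0.3386), Gclm (-0.27), Sult1c2a (-0.4273), Arg2 (-0.8326) and Slc12a3 (0.1967) for ZDF over lean on casein, and for Cyp24a1 (-0.2794) and Arg2 (0.6967) in the interaction. Gclm for whole egg over casein in ZDF rats turned with RLE (-0.0114) and upper quartile factors (-0.0063), filterByExpr (-0.0064), DESeq2 (-0.0108) and without rats 5 and 10 (-0.0958). Without 1 library, values for whole egg over casein spanned -0.0611 to 0.2354 for Sult1c2a in lean rats, and -0.5034 to 0.2154 for Cyp24a1, -0.1301 to 0.2405 for Gclm and -0.4737 to 0.0963 for Sult1c2a in ZDF rats. For ZDF over lean they spanned -0.3476 to 0.0729 for Gclm on whole egg, and on casein -0.0293 to 0.3431 for Gclm and -0.1784 to 0.3745 for Sult1c2a. None of these was past the test, and the causes were not tested. Depth limits single genes most in rats 5 and 10, the shallowest kidney libraries.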
